A study of Homo sapiens with 28 samples.

Results

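Genes that changed in the same direction in all 5 TWIST1 knockout clones of MDST8 were the subject of this comparison. MDST8 is an established human colorectal cancer cell line, and the RNA-seq part of the study on it comprised 18 of the 28 samples of the series. WT cells gave 3 libraries (A, B and C), and each of 5 single-cell-derived clones, named here 1.1, 2.2, 3.2, 3.5 and 3.6, gave another 3. The clones carried a CRISPR-Cas9 knockout of TWIST1, no group received a further treatment, and all were cultured in DMEM with fetal bovine serum. The clones bear 3 label prefixes, TG1 for clone 1.1, TG2 for clone 2.2 and TG3 for clones 3.2, 3.5 and 3.6. The study describes electroporation and single-cell sorting for the clones and no such step for WT cells. A change common to the clones therefore cannot be told apart from an effect of these steps. Each clone descends from a single cell, so a change in 1 clone cannot be told apart from what that cell carried, and the labels do not say whether the 3 libraries of a group came from separate cultures. The p-values then measure only the spread between these libraries.

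Each clone was compared with WT, and a gene was taken as common when its absolute log2 fold change exceeded 0.58 with an adjusted p-value below 0.05 (edgeR quasi-likelihood test, Benjamini-Hochberg adjustment) in the same direction in each of the 5 clones. Of the 13706 genes tested, 434 were higher in all 5 clones (3.17%) and 145 were lower (1.06%), 579 in all. Genes were ranked by the smallest absolute log2 fold change over the clones, so that a gene's place was set by the clone in which it changed least. Called genes per clone made up 12% (higher) and 7.49% (lower) of those tested in clone 1.1, 8.05% and 6.64% in clone 2.2, 10.9% and 6.09% in clone 3.2, 11.2% and 7.25% in clone 3.5, and 15.3% and 11.7% in clone 3.6. For the mean of the 5 clones, each clone weighted equally, 1397 genes were called higher (10.2%) and 826 lower (6.03%). The 5 comparisons share the same 3 WT libraries, and the number of genes in common is therefore given without a test.

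TWIST1 is a basic helix-loop-helix transcription factor that binds E-box sequences of DNA as a dimer. In the embryo it acts in mesoderm and neural crest, and in carcinomas it is known for its part in epithelial to mesenchymal transition, in which cells lose contacts and gain motility. CRISPR-Cas9 cuts can disrupt the reading frame of a gene, and its mRNA can still be transcribed.

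TWIST1 mRNA was checked first. It reached 45.2, 52.7 and 40.6 CPM (CPM, counts scaled to library size with TMM factors) in WT libraries A, B and C and 28.6 to 57.6 CPM (median 40.8) in the 15 clone libraries, and the 2 ranges overlapped. TWIST1 was not a member of the common set, with log2 fold changes from -0.65 to 0.22 over the clones. Over clone means the difference was -0.18 on the log2(CPM + 0.5) scale (exact permutation test of 5 clone means against 3 WT libraries, two-sided, p = 0.429). For the mean of the clones the log2 fold change was -0.19 (adjusted p = 0.00213, edgeR quasi-likelihood test). That p-value measures the spread between libraries and not between clones, and the change lay inside the fold threshold. The mRNA level therefore does not check the knockout, and protein was not measured in these files. Of 10 markers of colorectal epithelium only KRT8 and KRT18 passed the filter on low counts, CDH1 (E-cadherin) reached at most 0.0589 CPM and EPCAM at most 0.254 CPM in any library. None of 10 markers of blood and vessel cells passed it, and their summed level was 0.204 to 0.713 CPM in WT and 0.0449 to 0.608 CPM in the clones. Of 9 fibroblast markers 6 passed, with a summed level of 751 to 763 CPM in WT and 556 to 1536 CPM in the clones, most of it COL1A1, and none of the 6 was common to the 5 clones. Total counts per library ran from 17252883 to 22217009, and mitochondrial genes took 2.4 to 3.05% of counts in WT and 2.38 to 4.37% in the clones. The part of mitochondrial counts in the results below was not tested.

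Among the higher genes 357 were protein-coding, 65 were lncRNAs and 12 were of other biotypes, and among the lower genes these numbers were 118, 19 and 8. Their median log2 fold change for the mean of the clones was 1.20 and -1.03, values that the choice of genes largely sets. In 402 of the 434 higher genes every clone library lay above every WT library, which was so for 12.8% of all genes tested, and in 142 of the 145 lower genes every clone library lay below, which was so for 14.7%. The choice of genes was made on these same libraries, and nothing is read from these shares. The smallest change exceeded 1 on the log2 scale in 132 higher and 27 lower genes, and it exceeded 2 in 16 higher genes and in 2 lower genes, FBLN5 and ENSG00000280614. Clone 2.2 was most often the clone that changed least, in 213 of the 434 higher and 60 of the 145 lower genes. With clone 2.2 left out, 748 genes were higher and 289 lower in the other 4 clones.

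Just inside the threshold lay MATCAP1, MIRLET7IHG and LRRC27 among the higher genes, with smallest changes of 0.581, 0.582 and 0.583, and just outside it lay SLC6A9 (0.579), BTN3A3 (0.579) and RAB9B (0.578). On the lower side FANCB (0.582), POLQ (0.584) and SKA3 (0.585) lay just inside, and LINC01605 (0.5796), KCNG1 (0.578) and PDZD4 (0.578) just outside.

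Promoters of 6 genes at the top of the ranking are shown because TWIST1 binds E-boxes. They include WNT6 and FBLN5, which rank first among the higher and the lower genes. LGALS9 and KRT34 have promoters with the E-box CATCTG named by the study, as does RGS8, not shown. RGS16 has 2 listed TWIST1 peaks within 3000 bp of its counted 5′ end, as do DACH1, SERPINB2, CBLN2 and PRR9, not shown. SERPINI1 has the listed TWIST1 peak with the lowest q-value among the top genes looked up. Of the sequences printed below, a listed peak overlaps only that of FBLN5, which holds no CANNTG. The E-boxes marked in the other printed sequences do not lie under a listed peak. Peaks were not looked up for ATP6V0D2, PWWP3B, LDB2, GABPB2, JAKMIP2-AS1, LINC00520, ENSG00000280614 and ENSG00000279495. Each sequence runs 5′ to 3′ from 250 bases before to 50 bases after the gene's start in RefSeq (GRCh38.p14). Capitals mark CANNTG on either strand, of which CATCTG and its reverse complement CAGATG are special cases. The RefSeq start is the 5′ end of the counted gene for WNT6, RGS16 and KRT34, and it lies 293 bases downstream of it for FBLN5, 478 for SERPINI1 and 1390 for LGALS9.
WNT6, chr2:218859555-218859854, plus strand: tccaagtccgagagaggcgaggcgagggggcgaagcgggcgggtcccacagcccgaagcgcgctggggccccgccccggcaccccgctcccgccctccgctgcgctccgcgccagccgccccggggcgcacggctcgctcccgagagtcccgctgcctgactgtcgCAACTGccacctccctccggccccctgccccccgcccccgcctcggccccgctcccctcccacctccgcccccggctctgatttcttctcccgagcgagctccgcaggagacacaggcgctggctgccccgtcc
LGALS9, chr17:27630938-27631237, plus strand: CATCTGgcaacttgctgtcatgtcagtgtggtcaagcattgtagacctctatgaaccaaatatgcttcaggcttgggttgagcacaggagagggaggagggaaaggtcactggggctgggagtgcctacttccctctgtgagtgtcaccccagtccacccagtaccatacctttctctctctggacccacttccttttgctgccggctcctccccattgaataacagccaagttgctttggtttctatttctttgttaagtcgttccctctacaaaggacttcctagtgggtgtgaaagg
RGS16, chr1:182604340-182604639, minus strand: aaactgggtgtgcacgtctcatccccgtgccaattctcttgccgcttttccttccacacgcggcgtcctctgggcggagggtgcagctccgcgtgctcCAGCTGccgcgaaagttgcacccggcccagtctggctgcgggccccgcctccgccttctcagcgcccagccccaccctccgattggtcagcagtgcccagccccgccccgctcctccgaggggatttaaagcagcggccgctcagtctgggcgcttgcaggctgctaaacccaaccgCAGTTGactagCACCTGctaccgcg
SERPINI1, chr3:167735471-167735770, plus strand: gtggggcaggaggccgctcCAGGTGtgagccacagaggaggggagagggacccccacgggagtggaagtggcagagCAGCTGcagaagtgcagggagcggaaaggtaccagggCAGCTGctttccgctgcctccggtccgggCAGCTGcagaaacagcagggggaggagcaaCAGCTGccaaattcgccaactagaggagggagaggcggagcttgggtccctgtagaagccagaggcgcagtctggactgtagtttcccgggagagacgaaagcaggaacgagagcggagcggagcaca
FBLN5, chr14:91947645-91947944, minus strand: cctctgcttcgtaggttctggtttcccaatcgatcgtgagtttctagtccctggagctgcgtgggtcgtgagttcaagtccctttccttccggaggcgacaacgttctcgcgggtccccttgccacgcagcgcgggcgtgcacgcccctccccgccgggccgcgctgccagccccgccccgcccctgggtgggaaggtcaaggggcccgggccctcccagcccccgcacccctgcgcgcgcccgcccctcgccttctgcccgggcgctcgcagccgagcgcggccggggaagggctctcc
KRT34, chr17:41382257-41382556, minus strand: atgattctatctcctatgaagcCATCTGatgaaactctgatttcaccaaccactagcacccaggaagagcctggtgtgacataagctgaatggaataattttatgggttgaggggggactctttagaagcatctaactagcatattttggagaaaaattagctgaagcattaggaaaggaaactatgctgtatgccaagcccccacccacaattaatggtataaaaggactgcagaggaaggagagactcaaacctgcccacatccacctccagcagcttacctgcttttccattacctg

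WNT6 has 1 CANNTG in this window, LGALS9 1, RGS16 3, SERPINI1 5, KRT34 1 and FBLN5 0. Promoters in the RefSeq table were matched by symbol for 314 of the 434 higher and 105 of the 145 lower genes, and for 10311 of the 13706 genes tested. CATCTG or CAGATG stood in 9.87% of the higher, 10.5% of the lower and 9.28% of all tested promoters, and in 14.8% of the 27305 promoters in the table. Any CANNTG stood in 63.1, 67.6, 59.4 and 68.9% of them. The shares of the common genes lay within 10 percentage points of those of all genes tested, and a match of letters is a description only.

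The higher genes were led by WNT6, a secreted WNT ligand (chr2:218859805-218874233, hg38). WT libraries held 1 to 3 counts of it each, 0.160, 0.0509 and 0.102 CPM, and the 15 clone libraries 0.568 to 6.41 CPM (median 2.59), so that the groups did not overlap. The summed counts gave a ratio of 27.5 between clones and WT (95% exact interval 12.6 to 75.2, counting error only). Fitted log2 fold changes ran from 3.36 to 5.75 over the clones, least in clone 2.2 and most in clone 3.6, and those of genes with few WT counts depend on the fit. LGALS9, which encodes the glycan-binding protein galectin-9, stood at 0.535, 0.509 and 0.408 CPM in WT and at 3.18 to 18.1 CPM (median 7.24) in the clones. Its log2 fold change was 3.89 (SE 0.18) for the mean of the clones, and the ratio of summed counts was 17.4 (95% exact interval 12 to 26.3).

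EDIL3, an extracellular matrix protein that binds integrins, was measured from far more reads. It rose from 5.35, 6.77 and 5.25 CPM in WT to 24.7 to 65.6 CPM (median 30.5) in the clones, a log2 fold change of 2.66 (SE 0.09) (adjusted p = 2.84e-23, edgeR quasi-likelihood test with Benjamini-Hochberg adjustment). EDIL3 was picked by its rank in these same libraries, so this p-value adds no further support. Among other secreted proteins, the serine protease gene PRSS33 rose by 2.09 to 6.22 on the log2 scale over the clones from 1.65 ± 0.860 CPM (mean ± SD, n = 3) in WT, and SERPINI1, which encodes the protease inhibitor neuroserpin, by 2.04 to 3.65 from 0.852 ± 0.394 CPM. In the plot of values by library, every clone lies above WT for each of the higher genes shown, and the clones differ in height.

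**Figure D1:**
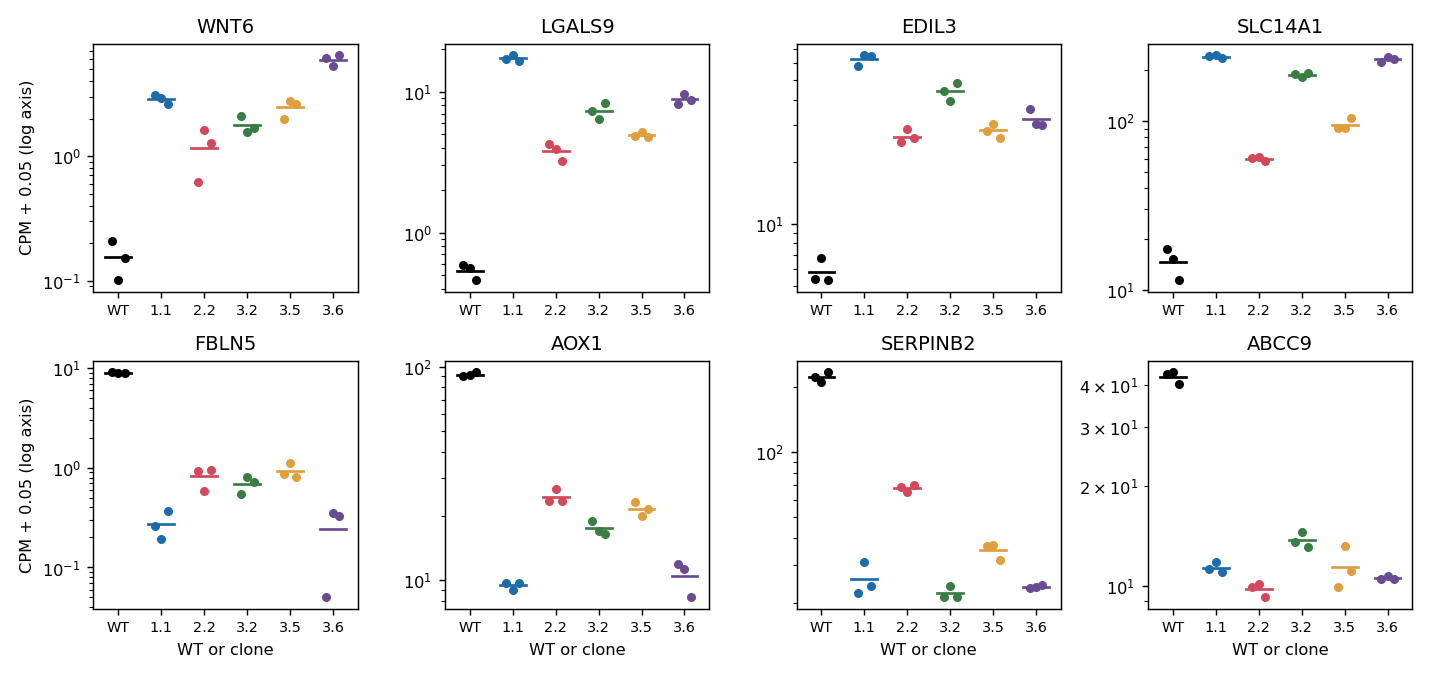
CPM of 8 common genes in each of the 18 libraries (log axis, 0.05 CPM added so that a count of 0 can be drawn), with WT in black, clones in colour and a bar at each group mean. The 15 clone libraries lie above the 3 WT libraries for WNT6, LGALS9, EDIL3 and SLC14A1 and below them for FBLN5, AOX1, SERPINB2 and ABCC9.

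Regulators of signalling and transport formed a further group of leading higher genes. RGS16 and RGS8, neighbours on chromosome 1 that encode GTPase activators for G protein alpha subunits, had 1.12, 0.560 and 0.612 CPM and 0.214, 0.306 and 0.153 CPM in WT. Clone libraries reached 3.31 to 10.5 CPM (median 6.08) for RGS16 and 1.08 to 4.44 CPM (median 1.72) for RGS8. In both genes clones 2.2 and 3.5 had the largest changes, and every clone library lay above WT. ROR1, a receptor tyrosine kinase-like protein of noncanonical WNT signalling, rose by 1.83 to 4.66, most in clone 3.5, from a WT level of only 2 to 4 counts per library. SLC14A1, a urea transporter, was the most abundantly counted of this group, with 17.4, 15.2 and 11.4 CPM in WT and 58.3 to 245 CPM (median 190.1) in the clones. Its log2 fold change was 3.29 (SE 0.06), from 2.03 in clone 2.2 to 4.04 in clone 1.1. CACNA1D, a pore-forming subunit of L-type calcium channels, changed by nearly the same amount in every clone, 2.18 to 2.57, and the F test among the clones did not pass (adjusted p = 0.0586, edgeR). ATP6V0D2, a subunit of the proton pump of lysosomes, rose by 3.23 to 4.80 from 0.259 ± 0.102 CPM. SLC14A1 overlaps ENSG00000288545 and CACNA1D overlaps DCP1A on the opposite strand, and strand was not used in counting, so reads of such pairs cannot be told apart.

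Genes of nuclear proteins were also among the 15 leading protein-coding genes. PWWP3B, which encodes a PWWP domain protein, rose from 13.4, 16.2 and 12.2 CPM to 52.5 to 188 CPM (median 121). LDB2, a binding partner of LIM domain proteins, rose by 1.80 to 2.91 and DACH1, a transcriptional repressor, by 1.76 to 2.80, from 4.48 ± 0.788 CPM and 5.25 ± 0.879 CPM in WT. ZNF608, a zinc finger gene with 4 to 7 counts per WT library, rose by 2.33 to 3.24. Outside protein-coding genes the ranking was led by EDIL3-DT (2.57 to 3.41), JAKMIP2-AS1 (2.54 to 3.93) and LINC01854 (2.22 to 4.44). EDIL3-DT and JAKMIP2-AS1 overlap EDIL3 and JAKMIP2 on the other strand, and their counts are uncertain for the reason given above.

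**Figure D2:**
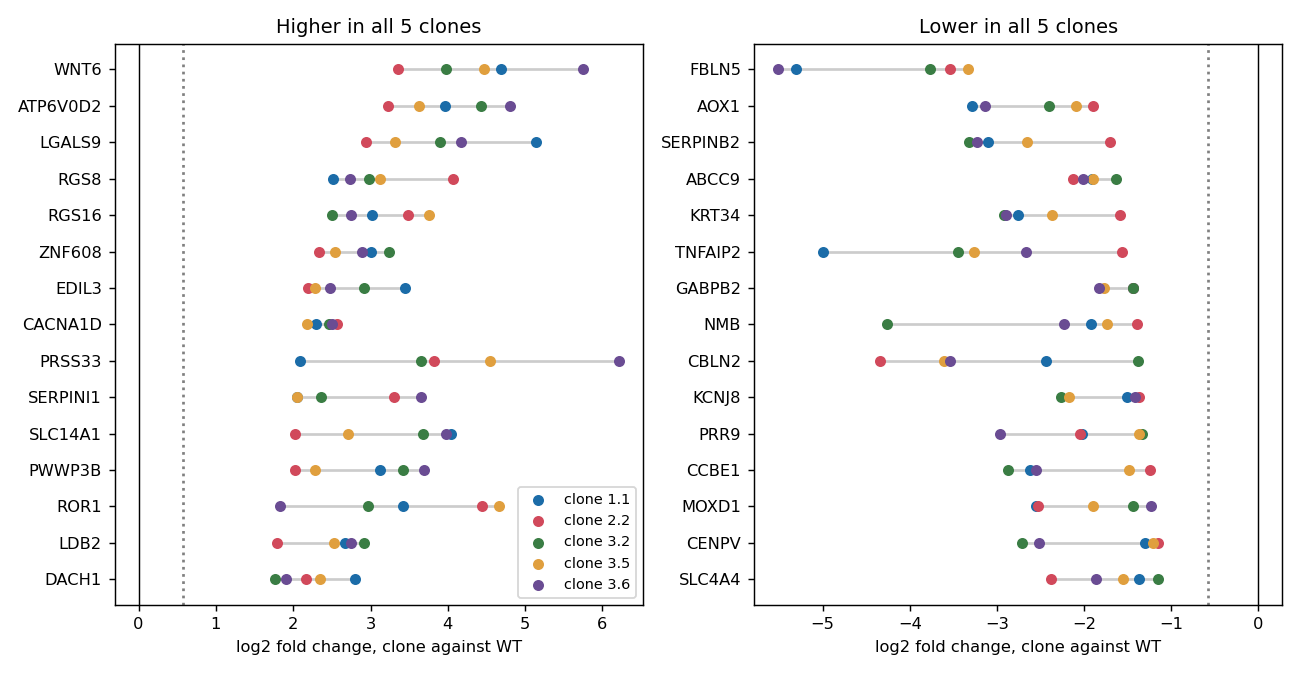
Log2 fold change against WT in each of the 5 clones (coloured points) for the 15 protein-coding genes with the largest smallest change in each direction, joined by a grey line per gene, with dotted lines at the threshold of 0.58. WNT6 leads the higher genes from 3.36 upward, FBLN5 leads the lower genes, and CACNA1D and ABCC9 have their 5 points close together.

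The lower genes were led by FBLN5, which encodes fibulin-5, a protein of elastic fibres (chr14:91869411-91947987). It fell from 9.04, 8.97 and 8.92 CPM in WT to 0 to 1.06 CPM (median 0.537) in the clones, and its log2 fold change was -4.29 (SE 0.17) (adjusted p = 2.67e-21, edgeR quasi-likelihood test). As with EDIL3, the p-value comes from the libraries used for the ranking and adds no further support. AOX1, aldehyde oxidase, fell from 90.0, 91.0 and 93.9 CPM to 8.24 to 26.7 CPM (median 16.9), a log2 fold change of -2.56 (SE 0.05). SERPINB2, the plasminogen activator inhibitor PAI-2, had 221, 211 and 233 CPM in WT and 21.1 to 70.4 CPM (median 24.1) in the clones. In all 3 genes the clone and WT libraries lay far apart, and clone 2.2 or 3.5 kept the most mRNA.

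ABCC9 and KCNJ8, adjacent genes on chromosome 12, encode the sulfonylurea receptor SUR2 and the potassium channel pore Kir6.1, which assemble into ATP-sensitive potassium channels. ABCC9 fell from 43.3, 43.7 and 40.3 CPM to 9.18 to 14.5 CPM (median 10.9) and KCNJ8 from 5.51, 4.33 and 5.10 CPM to 0.674 to 2.57 CPM (median 1.55). ABCC9 was one of the most even of the leading genes, with log2 fold changes of -1.63 to -2.12, although the clones still differed by the F test (adjusted p = 0.000201, edgeR). SLC4A4, a sodium bicarbonate cotransporter, fell by 1.15 to 2.38 on the log2 scale from 14.2 ± 0.650 CPM.

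Other leading lower genes encode secreted proteins. CCBE1, known for its role in the growth of lymphatic vessels, went from 37.7, 35.3 and 38.9 CPM in WT to 4.25 to 16.2 CPM (median 6.51) in the clones. CBLN2, a cerebellin, had log2 fold changes of -1.38 to -4.34 and NMB, the peptide neuromedin B, of -1.40 to -4.26, the latter deepest in clone 3.2. The structural proteins KRT34, a hair keratin, and PRR9 had 10.3 ± 0.461 CPM and 4.87 ± 0.334 CPM in WT and log2 fold changes of -1.59 to -2.91 and -1.33 to -2.97. TNFAIP2 fell by between 1.57 (clone 2.2) and 5.00 (clone 1.1) on the log2 scale. MOXD1, a copper-dependent monooxygenase, CENPV, a centromere protein, and GABPB2, a subunit of the transcription factor GABP, fell by 1.93, 1.78 and 1.58 for the mean of the clones. GABPB2 did not differ detectably among the clones by the F test (adjusted p = 0.286, edgeR). Of other biotypes, ENSG00000280614 (-2.22 to -2.91), LINC00520 (-1.62 to -3.36) and ENSG00000279495 (-1.25 to -1.84) came first. ENSG00000280614 lies on chromosome 21 beside ENSG00000281181, also common, and overlaps ENSG00000280441 on the other strand.

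SPON2, which encodes the secreted matrix protein spondin-2 that the study followed, was a common lower gene at rank 70 of 145. It stood at 6.26, 8.81 and 7.29 CPM in WT and 0.195 to 5.15 CPM (median 1.99) in the clones, and all 5 clone means lay below the 3 WT libraries. The difference over clone means was -1.90 on the log2(CPM + 0.5) scale (exact permutation test of 5 clone means against 3 WT libraries, two-sided, p = 0.0357, the smallest that 56 arrangements allow). The study chose SPON2 on these same samples, so this p-value is not independent evidence of its direction. Without WT library B the smallest change of SPON2, in clone 3.6, was -0.57 and no longer past the threshold, and with clones taken as the replicates its mean did not pass (log2 fold change -1.81). SPP1, which encodes the secreted protein osteopontin and was named here after its values were seen, fell from 46.8, 45.3 and 43.6 CPM to 12.3 to 27.8 CPM (median 21.6), with log2 fold changes of -0.79 to -1.74.

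Counts in the pathway lists stand beside those over all genes tested, of which 10.2% were called higher and 6.03% lower for the mean of the clones and 3.17 and 1.06% in all 5 clones. Some list members are candidates that the study chose on these same samples, and their changes are not independent evidence. Among the common members these are CENPM, DBF4B, SLC7A5, SLC7A1, F3, PIK3IP1, PDCD4, MIR3142HG, TNFAIP3 and PCDHGC3. CENPM and F3 are the only common genes of their lists. All 32 genes of DNA replication that were tested had a lower mean than WT in every clone, which was so for 28.2% of all genes tested, and their median log2 fold change for the mean of the clones was -0.63 against -0.01 for all genes. With upper-quartile factors 31 of the 32 had a lower mean in every clone. With the mean of the clones 19 of the 32 were called lower, 17 with limma on log2(count + 1), and 5 were common lower genes. These were GINS3 and GINS2, parts of the helicase complex at replication forks (-0.73 to -0.99 and -0.67 to -1.26 over the clones), TYMS, thymidylate synthase (-0.71 to -1.10), DBF4B, an activator of the CDC7 kinase (-0.71 to -0.83), and E2F1, the S-phase transcription factor (-0.59 to -1.05). In CPM, GINS3 went from 33.8, 32.3 and 35.5 CPM to 15.6 to 22.6 CPM (median 19) and DBF4B from 46.7, 47.3 and 46.8 CPM to 25.6 to 31.7 CPM (median 27.1), with no overlap. The helicase subunits MCM2, MCM5 and MCM6 were called for the mean of the clones at -0.66, -0.64 and -0.63 but not in every clone. TYMS overlaps ENOSF1 and GINS2 overlaps GSE1 on the opposite strand. Of 21 mitosis genes 19 had the same sign in all 5 clones (18 with limma on log2(count + 1)), all lower. For the mean 7 were called lower (6.03% of all genes tested) and 1, the centromere gene CENPM, was common (-0.66 to -1.04), with a list median of -0.48.

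Cholesterol synthesis genes had a median of -0.64. Of 21 tested, 12 were called lower for the mean of the clones (6.03% of all genes tested) and none higher, and 16 had a lower mean in every clone. With upper-quartile factors or limma on log2(count + 1), 11 were called lower and 15 had a lower mean in every clone. DHCR7, the last enzyme of the pathway to cholesterol, was the common member and went from 539, 573 and 518 CPM to 274 to 367 CPM (median 317), although without WT library B its least changed clone was at -0.57 and no longer passed. INSIG1, EBP and MVD had -0.87, -0.86 and -0.84 for the mean of the clones. Among 23 genes of amino acid supply and ATF4 targets, the amino acid transporters SLC7A5 (-1.0 to -3.78) and SLC7A1 (-0.65 to -1.39) and the serine synthesis enzyme PSAT1 (-0.63 to -0.91) were common lower genes. DDIT4, an inhibitor of mTORC1, was a common higher gene (0.91 to 1.44). SLC7A5 went from 18, 20.7 and 15.9 CPM in WT to 1.22 to 11.7 CPM (median 3.78) in the clones. Of 20 MYC and ribosome biogenesis genes, 13 were lower in sign in every clone (28.2% of all genes tested) and 2 were called lower for the mean (6.03% of all genes tested), or 1 with upper-quartile factors or limma. ODC1, the first enzyme of polyamine synthesis, was common (-0.67 to -1.07).

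**Figure D3:**
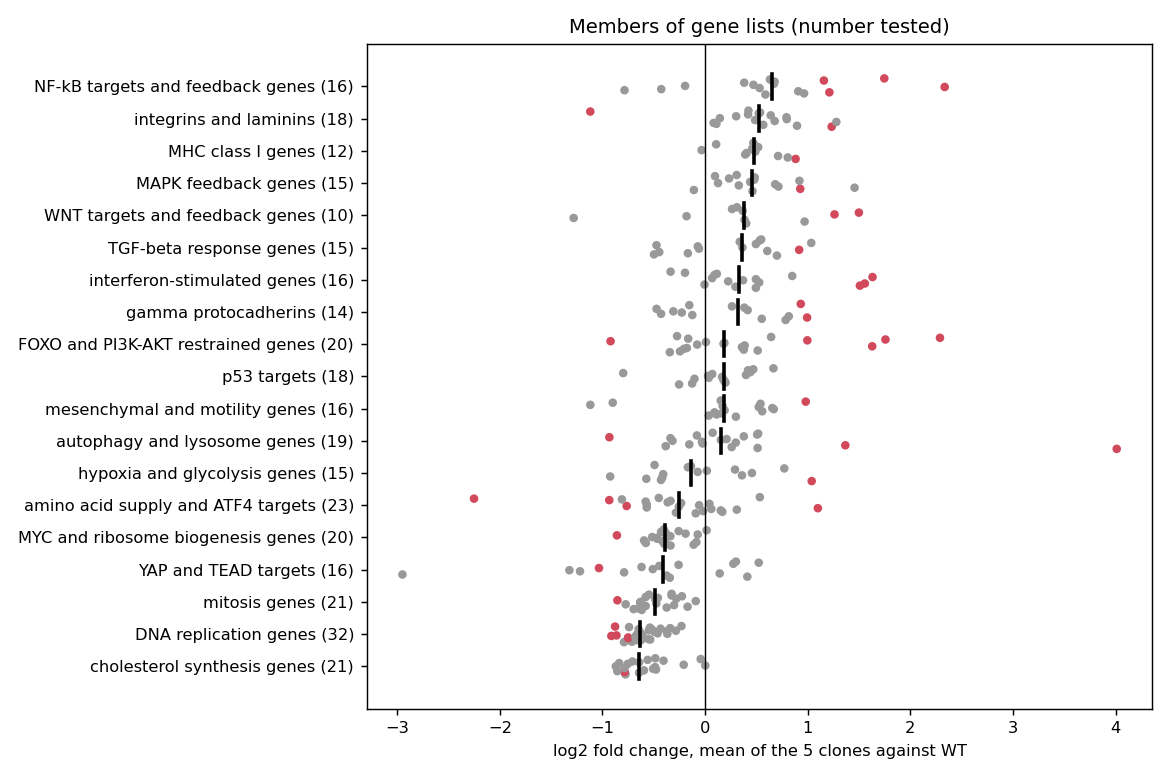
Log2 fold change of list members for the mean of the 5 clones against WT, one point per gene, for pathway lists with at least 10 genes tested (the study's candidates and the cell type markers are not drawn). Red points are common to all 5 clones, grey points are not, and black bars are list medians, which run from -0.64 for cholesterol synthesis to 0.65 for NF-kB targets.

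Inflammatory and immune lists lay on the other side of 0. Of 16 NF-kB targets and feedback genes tested, 10 were called higher and 1, CXCL3, lower for the mean of the clones, against 10.2 and 6.03% of all genes tested, and the median was 0.65. The list is a selection, and TNFAIP2 and SERPINB2, lower in every clone, are not in it. Common higher members were the lncRNA MIR3142HG (1.90 to 2.71), the signalling adaptor TRAF1 (0.90 to 2.81), TNFAIP3, which encodes the feedback inhibitor A20 (0.81 to 1.54), and the chemokine CCL2 (0.73 to 1.83). TNFAIP3 rose from 20.8, 25.5 and 22 CPM to 38.5 to 70.2 CPM (median 45.8) and CCL2 from 109.8, 99.2 and 94.5 CPM to 162 to 379.5 CPM (median 237). TNFAIP3 overlaps WAKMAR2 on the other strand. Of 16 interferon-stimulated genes 4 were called higher for the mean (10.2% of all genes tested) and 3 were common: IFIH1, a sensor of viral RNA (1.28 to 1.76), IFIT2 (1.18 to 1.90) and MX2 (1.17 to 1.99), with a list median of 0.33. Of 12 MHC class I genes 10 had a higher mean in every clone, which was so for 26.6% of all genes tested, 3 were called for the mean and B2M, the invariant light chain, was common. B2M rose from 656, 589 and 609 CPM to 985 to 1277 CPM (median 1156), with a list median of 0.48.

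Genes that FOXO factors induce or that PI3K-AKT signalling restrains gave 4 common higher members of 20 tested (3.17% of all genes tested), FBXO32, a ubiquitin ligase of muscle atrophy (1.38 to 1.88), PIK3IP1, an inhibitor of PI3K (1.35 to 2.12), SESN3 (0.81 to 2.95) and the translation inhibitor PDCD4 (0.78 to 1.11). Of these, PIK3IP1 and PDCD4 are candidates that the study chose on these same samples. IRS2, an adaptor of the insulin receptor, was common in the lower direction (-0.73 to -1.0), and the median of the list was 0.18. FBXO32 had 24.6, 20.5 and 24 CPM in WT and 58.9 to 87.3 CPM (median 73.6) in the clones, and its 5 clones lay close together. Of 10 WNT targets and feedback genes tested, NKD1 and NKD2, which encode inhibitors of Dishevelled, were common higher genes (0.66 to 1.83 and 0.71 to 2.63), with a list median of 0.37. NKD1 went from 111, 102 and 99.3 CPM to 159 to 388 CPM (median 223). Of 15 MAPK feedback genes 5 were called higher for the mean (10.2% of all genes tested) and none lower, and DUSP6, a phosphatase of ERK, was common (0.64 to 1.32), with a list median of 0.46.

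Smaller numbers were common in the remaining lists. PMEPA1, an inhibitor of TGF-beta signalling, was the 1 common gene among 15 TGF-beta response genes (0.73 to 1.07, list median 0.36). F3, tissue factor, was the 1 common gene of 16 YAP and TEAD targets, in the lower direction (-0.75 to -1.32, list median -0.41). TNC, a matrix glycoprotein, was common among 16 mesenchymal and motility genes (0.75 to 1.54, list median 0.18), the peptide gene ADM among 15 hypoxia and glycolysis genes (0.75 to 1.53, list median -0.14) and CA2 of the 2 intestinal identity genes tested (1.54 to 3.26). ITGA1, an integrin alpha chain for collagen, rose (0.71 to 1.59) and LAMB3, a laminin chain, fell (-0.91 to -1.29) among 18 integrins and laminins, whose median was 0.53. Of 19 autophagy and lysosome genes, ATP6V0D2 and GABARAPL1 were higher (0.84 to 1.98 for GABARAPL1) and the sialidase gene NEU1 was lower (-0.64 to -1.14). MXD4, a MAX-binding antagonist of MYC, was the common member of 8 bHLH partners and ID inhibitors tested (0.88 to 1.21). PCDHGA2 (0.80 to 1.21) and PCDHGC3 (0.68 to 1.34) were common among 14 gamma protocadherins.

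Other lists held no common gene, 2 of them close to the known role of TWIST1. Over all genes tested only 3.17 and 1.06% were common, so short lists can hold none, and nothing is read from this. None of 6 EMT transcription factors was common. For the mean of the clones 2 were called lower (6.03% of all genes tested) and 0 higher, with a list median of -0.21. The largest change for the mean was that of FOXC2 at -1.51 (SE 0.14), which was only -0.19 in clone 3.5. None of 4 epithelial adhesion genes tested was common, and 2 were called higher for the mean (10.2% of all genes tested) and 0 lower, with a list median of 0.91. The desmosome gene DSP had 1.69 (SE 0.10) for the mean but -0.28 in clone 2.2. Of 18 p53 targets none was common, and SPATA18 had -4.85 in clone 2.2 against -0.56 to 0.75 in the others. Of 7 lysophospholipid receptors none was common, and S1PR3 had no counts in clone 3.6, at least 80.8-fold lower than WT against a floor of 3 counts over the group. From the candidates that the study chose on these same samples, 12 of 13 were common higher and 8 of 14 common lower genes, which is not independent evidence of their direction. ACTR3C and MGMT, a DNA repair methyltransferase, were among them with 1.33 and 1.20 for the mean of the clones.

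Some common genes lay beside each other, which was looked for after the values were seen. With neighbours no more than 200000 bp apart counted together, 105 of the 434 higher genes fell into 43 groups and 20 of the 145 lower genes into 10. No share for other sets of genes was computed, and several groups are a gene with its own antisense or divergent transcript, such as EDIL3 with EDIL3-DT, PDCD4 with PDCD4-AS1 and SLC14A1 with ENSG00000288545, where reads counted without strand cannot be told apart. The group with most members held 12 higher genes of the clustered protocadherins at chr5:140794852-141512977 (hg38), which encode cell adhesion molecules of the cadherin superfamily. These were PCDHA2, PCDHA8, PCDHA10, PCDHB2, PCDHB3, PCDHB10, PCDHB11, PCDHB12, PCDHB15, PCDHGA2, PCDHGC3 and ENSG00000279375. PCDHB10 rose from 20.7, 20.7 and 19.9 CPM to 33.6 to 51.0 CPM (median 39.5), PCDHB2 from 20.5, 19.3 and 19 CPM to 28.6 to 42.8 CPM (median 36.1) and PCDHGC3 from 76.7, 78.0 and 75.5 CPM to 120.2 to 201 CPM (median 139). Alpha and gamma protocadherins share exons and these families have close paralogs, so the split of reads between members is uncertain. HOXB4, HOXB5, HOXB-AS3 and LINC03057 formed a group of 4 at chr17:48549630-48647023, where the homeobox gene HOXB5 changed by 0.79 to 1.22 and HOXB4 by 0.84 to 1.26. The interleukin genes IL1A and IL1B were both higher (0.62 to 1.16 and 0.77 to 1.17). On the lower side, beside ABCC9 and KCNJ8, stood KRT34 with KRT33B (-1.11 to -2.33), and KRTAP2-3 (-1.13 to -5.59) with KRTAP2-4 (-1.13 to -5.24), which are near-identical copies whose reads may be split between them.

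By chromosome, 58 of 660 genes tested on chromosome 5 were common higher genes, 8.79% against the 3.17% over all chromosomes, and 12 of the 58 were those of the protocadherin group. Of the other numbered chromosomes and X, chromosome 10 followed with 5.32% and chromosome 15 with 4.64%. Common lower genes made up 4.95% of the 202 genes tested on chromosome 18 and 3.94% of the 432 on chromosome 14, against 1.06% over all. The median of all genes tested on these chromosomes moved the same way in every clone, at -0.25 to -0.33 on the log2 scale on chromosome 18, -0.19 to -0.24 on chromosome 14, 0.11 to 0.17 on chromosome 5 and 0.11 to 0.17 on chromosome 15. On chromosome 4 the medians were -0.40 and -0.42 in clones 2.2 and 3.5 and no more than 0.02 from 0 in the other 3. All 5 clones were set against the same 3 WT libraries, so what is common to the clones and what is particular to these WT cells cannot be told apart.

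**Figure D4:**
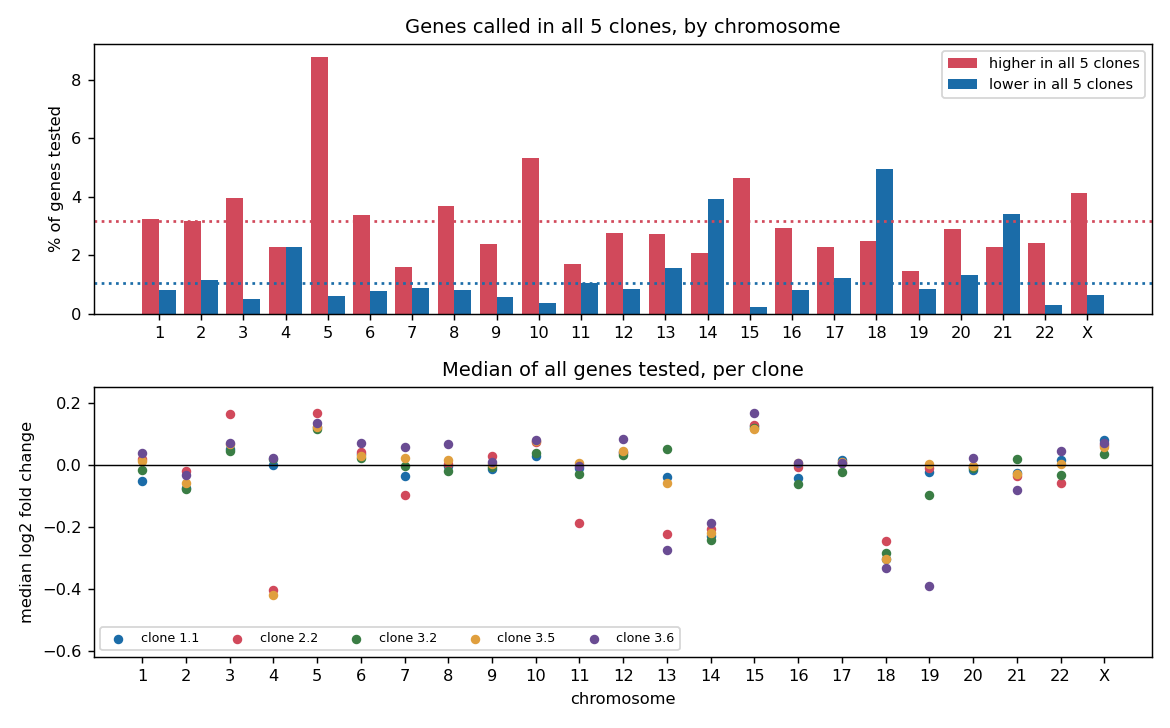
Top, the share of genes tested on each chromosome that were higher (red) or lower (blue) in all 5 clones, with dotted lines at the shares over all chromosomes, 3.17% and 1.06%. Bottom, the median log2 fold change of all genes tested on each chromosome in each clone. Chromosome 5 has the tallest red bar, and chromosomes 14 and 18 have low medians in all 5 clones.

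Sharing a direction did not mean an equal change. The F test among the 5 clones passed in 353 of the 434 higher genes (81.3%) and 113 of the 145 lower genes (77.9%), against 81.0% of all genes tested. Among common genes with a mean log2 CPM above 3, the higher genes with the smallest SD of log2 fold change over the clones were ARL15, a GTPase of the ADP-ribosylation factor-like family (0.73 to 0.85), IP6K2, an inositol hexakisphosphate kinase (0.58 to 0.69), and PRR7 (0.64 to 0.78). On the lower side these were FAM217B (-0.59 to -0.64), PIMREG (-0.66 to -0.80) and DBF4B. FAM217B went from 76.0, 79.9 and 78.4 CPM to 47.4 to 55.0 CPM (median 50.7), and IP6K2, PRR7 and FAM217B lie so near the threshold that leaving out 1 of some libraries put them below it. With the same limit on log2 CPM, the largest SD among the higher genes belonged to PRSS33, the collagen gene COL22A1 (1.5 to 4.96) and the transcription factor MAF (1.62 to 4.17), and among the lower genes to KRTAP2-3, SERPINB2 and CCBE1.

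**Figure D5:**
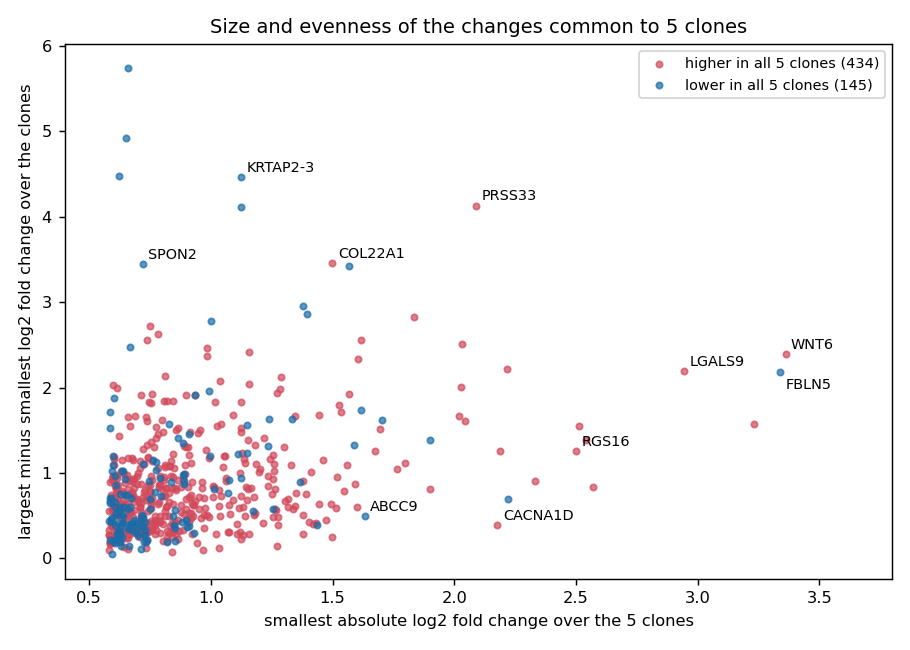
Each point is 1 of the 579 common genes, with its smallest absolute log2 fold change over the 5 clones on the x axis and the difference between its largest and smallest log2 fold change on the y axis. ABCC9 and CACNA1D combine a large smallest change with a small difference between clones, and PRSS33 and KRTAP2-3 differ by over 4 on the log2 scale.

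Genes with the largest change that moved the other way in exactly 1 clone mark the edge of the common set. LSAMP, an adhesion molecule of neurons, had 2.25 to 4.34 in 4 clones and -0.82 in clone 2.2. EDARADD, an adaptor of the ectodysplasin receptor, had 3.03 to 4.51 and -2.0 in clone 2.2, from 1 to 6 counts per WT library. HACD4 had -4.45 to -5.64 in 4 clones and 1.42 in clone 2.2. ADGRD1-AS1 had no counts in clone 3.6, at least 63.0-fold lower than WT. It was -3.04 in clone 1.1 and -6.26 in clone 3.2, but only -0.10 in clone 2.2 and 0.10 in clone 3.5.

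LoVo, another human colorectal cancer line, gave a readout that the choice of genes did not use. Its 3 libraries labelled TWIST1 shRNA were compared with 3 labelled shRNA control. No TWIST1 reads were counted under the shRNA control label, against 73 to 93 per library under the TWIST1 shRNA label, so the counts run against the labels, and every LoVo direction here is that of the library labelled so. Of the 14270 genes tested in LoVo, 26.6% were called higher and 26.1% lower under the TWIST1 shRNA label. Of the 434 higher genes, 303 were tested in LoVo, and 84 of them (27.7%) were higher and 115 (38%) lower there. Of the 145 lower genes 108 were tested, of which 37 (34.3%) were higher and 30 (27.8%) lower. Among the 12132 genes tested in both lines these shares were 24.6 and 23.8%. If the labels were exchanged, every higher and lower in these counts would change places, so that 115 of the 303 would be higher and 30 of the 108 higher.

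Leading genes lay on both sides. WNT6 had 0 counts per library under the control label and 87 to 152 under the TWIST1 shRNA label. PWWP3B, too, had 0 counts per library under the control label and 69 to 96 under the TWIST1 shRNA label. These are the libraries in which TWIST1 was counted. LGALS9 had 103 to 120 counts per library under the control label and 23 to 36 under the TWIST1 shRNA label. ZNF608 had 452 to 499 counts per library under the control label and 37 to 42 under the TWIST1 shRNA label. Among the lower genes, KCNJ8 had 114 to 123 counts per library under the control label and 6 to 9 under the TWIST1 shRNA label. FBLN5 had 191 to 244 counts per library under the control label and 216 to 262 under the TWIST1 shRNA label and was not called (adjusted p = 0.176, edgeR quasi-likelihood test). EDIL3 had no counts in any LoVo library. SPON2, lower in the MDST8 clones, had 16 to 26 counts per library under the control label and 22 to 50 under the TWIST1 shRNA label, with overlapping ranges, and was called higher under the latter (log2 fold change 0.78, adjusted p = 0.047, edgeR quasi-likelihood test). Of other genes higher in the clones, the log2 fold change under the TWIST1 shRNA label was 3.27 for DUSP6, -1.69 for TNFAIP3, -2.12 for PIK3IP1, -2.46 for MIR3142HG and -1.33 for MGMT. Of genes lower in the clones, it was 1.51 for F3 and 1.13 for CENPM. Each of these signs would turn with the labels. Apart from DUSP6, these genes and SPON2 are candidates that the study chose by their changes in both lines. Their LoVo values are therefore not independent evidence of direction.

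The list of TWIST1 ChIP-seq peaks in MDST8, from 1 library of WT cells, was another readout outside the ranking. At least 1 listed peak lay no more than 3000 bp from the 5′ end in 71.7% of the higher genes, 73.8% of the lower genes and 76.5% of all genes tested, with no replicate. Peaks with p of at most 0.001, 58570 in number, gave shares of 22.4, 31.7 and 28.3%. Peaks with q of at most 0.05, 1075 in number, lay there for 2 higher genes (0.461%), 2 lower genes (1.38%) and 88 of all genes tested (0.642%). Among the genes from the top of the ranking for which peaks were looked up, SERPINI1 had the peak with the lowest q-value. Its fold enrichment was 4.92 and its q-value 0.00252 from MACS2. RGS16 had 2 peaks with a highest fold enrichment of 3.63 and FBLN5 had 1 with 2.29, none with a q-value of at most 0.05. No peak was listed within this distance for WNT6, ZNF608, CACNA1D, LINC01854, NMB, KCNJ8, CCBE1, MOXD1 or SLC4A4. The distance was taken from the counted 5′ end, and the RefSeq start of CACNA1D lies 165648 bp downstream of it.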

How the data were processed

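RNA-seq of poly(A) RNA gave per-gene raw counts, which the authors made with Trim Galore 0.6.6, HISAT2 2.1.0, SAMtools 1.6 and featureCounts 2.0.0 (versions from the submitters' processing notes) on hg38 with GENCODE v43, without using strand. The deposited peak file, from Bowtie2 2.4.5 and MACS2 2.2.7.1, gives a score, a fold enrichment (ratio), −log10 p- and q-values and the summit distance for each peak, and positions were read as hg38. The count tables' other column holds gene length in bp, per the file headers.

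Genes entered the fit if the geometric mean of RPM + 1, minus 1, was at least 1 over all 18 libraries, and a gene expressed in few libraries only can thus be missing. One edgeR 4.0.16 quasi-likelihood model (R 4.3.3, TMM factors, 1 term per group) gave each clone against WT, the equally weighted mean of the clones, and an F test among clones, with Benjamini-Hochberg adjustment over 13706 genes. LoVo was fitted alone. Data were simulated with known changes over 13706 genes. The rule of all 5 clones recovered 90% of the changed genes at a log2 size of 1 and 100% at a log2 size of 2. Recovery of changes that differ in size among the clones was not tested. Counting intervals are exact and cover counting error only.

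The text names TWIST1 and SPON2, the 15 protein-coding and 3 other common genes per direction with the largest smallest change, up to 4 common members per list (if none, the member with the largest mean change), the genes at the threshold, those with the smallest and largest SD over clones, and those opposite in 1 clone. Other genes were named after their values were seen. Members and lists were chosen with earlier results of these data known. Alternatives covered normalization, filters, tools (DESeq2 1.42.0, limma 3.58.1), thresholds, left-out libraries and clones, and peak windows.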

Additional observations from a re-analysis of the deposited data

Results flagged for a closer look

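For most genes named from the top of the ranking, and for SPON2 and TWIST1, the effect against WT differed among the 5 clones by the F test (edgeR, adjusted over all genes tested). CACNA1D, GABPB2, ENSG00000280614 and ENSG00000279495 did not pass it. The size of the difference is given as the largest minus the smallest log2 fold change over the clones. Among the higher genes it was 2.39 for WNT6, 1.57 for ATP6V0D2, 2.19 for LGALS9, 1.55 for RGS8, 1.26 for RGS16, 0.90 for ZNF608, 1.25 for EDIL3 and 4.13 for PRSS33. It was 1.6 for SERPINI1, 2.01 for SLC14A1, 1.67 for PWWP3B, 2.83 for ROR1, 1.12 for LDB2, 1.04 for DACH1, 0.84 for EDIL3-DT, 1.39 for JAKMIP2-AS1 and 2.22 for LINC01854 in the rest of them. Among the lower genes it was 3.45 for SPON2, 2.18 for FBLN5, 1.39 for AOX1, 1.62 for SERPINB2, 0.49 for ABCC9, 1.32 for KRT34, 3.43 for TNFAIP2 and 2.86 for NMB. For the other lower genes it was 2.96 for CBLN2, 0.90 for KCNJ8, 1.63 for PRR9, 1.63 for CCBE1, 1.31 for MOXD1, 1.56 for CENPV, 1.23 for SLC4A4 and 1.74 for LINC00520. TWIST1 itself differed by 0.87.

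Among the genes that moved the other way in 1 clone the difference was 5.16 for LSAMP, 6.51 for EDARADD, 7.06 for HACD4 and 8.98 for ADGRD1-AS1. In 3 genes a single clone lay far from the other 4. Chance gives this in about 1 in 20 such groups that were not chosen for it. These were EDARADD, at -2.0 in clone 2.2, HACD4, at 1.42 in clone 2.2, and ENSG00000279495, at -1.84 in clone 3.2. EDARADD and HACD4 were named because 1 clone moved the other way, so that rate does not apply to them. EDARADD also had only 1 to 6 counts per WT library.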

How the results depend on the processing

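The numbers of common genes moved most with the fold threshold and the choice of clones. Without a fold threshold 1721 genes were higher and 1836 lower in all 5 clones, above an absolute log2 fold change of 1 the numbers were 132 and 27, and leaving out clone 2.2 gave 748 and 289. With no filter on low counts 5681 and 8164 genes had the same sign in all 5 clones, and 1731 were lower for the mean of the clones. Promoter peak shares of the higher and the lower genes were 44.5 and 48.3% within 1000 bp (53.4% of all genes tested), 82.9 and 83.4% within 5000 bp (86.3%), 22.4 and 31.7% for p of at most 0.001 (28.3%), and 0.461 and 1.38% for q of at most 0.05 (0.642%). SPATA18 changed sign for the mean of the clones, to 0.22, when clone 2.2, its lowest, was left out. Leaving out 1 library at a time gave 408 to 459 higher and 133 to 152 lower common genes, 3582 to 3811 and 3693 to 3891 genes of the same sign, 1373 to 1456 and 793 to 844 genes for the mean of the clones, and in LoVo 83 to 89 and 108 to 118 of the higher and 37 to 40 and 29 to 32 of the lower genes. Of the 91 named common genes, 78 stayed common under all 33 alternatives at the same thresholds, and 8 were lost with limma on log2(count + 1), among them DHCR7, SPON2, PSAT1, PIMREG and FAM217B. The smallest change of FAM217B fell short without clone 3.5 A (-0.55), clone 3.6 B (-0.57), WT B (-0.56) or WT C (-0.58), that of IP6K2 without clone 2.2 A (0.57) or WT C (0.56), and that of PRR7 without clone 1.1 A (0.58), all below the threshold before rounding. The cause was not tested.

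The letters A, B and C do not pair the libraries: same-letter deviations from group means correlated at -0.15 to 0.12 over 45 pairs of libraries, and different letters at -0.17 to 0.17. With the letter as a replicate block 429 genes were higher and 144 lower in all 5 clones. For genes with few counts in WT, such as WNT6, ROR1 and RGS8, depth limits the size of the change.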
